A study of Mus musculus with 35 samples.

Results

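Antibody genes were followed across mouse B-cell development and in B-cell tumours through 52 of the 22690 probe sets of an Affymetrix Mouse 430A2 array. A probe set is a group of short array probes that reads 1 transcript or a few similar ones. The 52 were all probe sets whose annotated symbols include a variable (V), joining (J) or constant segment of the heavy, kappa or lambda chain, Ighm or Jchain. Of these, 11 were annotated to Ighm alone, 4 to Ighg3 alone, 3 to Igha alone and 1 to Jchain. Another 22 carried kappa variable symbols only, 3 carried Igkc together with Igkj1 and 3 kappa variable symbols, 5 carried a heavy variable symbol, and 3 were lambda probe sets. Single symbols were given to 39 probe sets, and the other 13, with several symbols, are called here by their probe set number. Each probe set was kept apart, and levels are compared within a probe set only, since brightness differs between probes.

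The study measured 35 samples in 9 groups. The 13 tumour samples, labelled lymphoid tumours, came from mice lacking both Lig4 and p53 (n = 6, here Lig4/p53 tumours), from dual-transgenic Myc/Bcl6 mice (n = 3) and from Bcl6 knock-in mice (n = 4, here Bcl6 tumours). The 22 normal samples were sorted from wild-type mice. Bone marrow gave 3 samples of pro-B cells, gated as B220+ and IgM- with high CD43, and 3 samples of pre-B cells, gated alike but with low CD43. From spleen came 4 samples of transitional B cells, gated as B220+ and Cd93+, 5 samples of B cells of the germinal centre (GC), gated as B220+ with high PNA binding, and 4 samples of plasmablasts, gated as B220+ and Cd138+ but Cd93-. The 3 samples of bone marrow plasma cells were Cd138+ and Cd93-, with low B220. Pre-B and transitional cells were of strain 129, GC cells, plasmablasts and plasma cells of strain B6, and pro-B cells of both (2 samples of 129, 1 of B6). The labels do not say whether replicates were separate mice or whether mice were pooled, so the p-values below measure the spread between these samples, which may be technical. As background, the Bcl6 knock-in line carries Bcl6 in the heavy chain locus itself, behind the I-mu promoter, so an allele of the locus under study is altered in these mice.

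A B cell builds its heavy chain gene by joining V, D and J segments in the pro-B stage, and its light chain gene, kappa or lambda, in the pre-B stage. The first heavy chain carries the mu constant region (Ighm), and class switching in activated B cells exchanges it for a gamma (here Ighg3), alpha (Igha) or epsilon region. The joined gene is passed to all progeny of the cell, so a tumour grown from 1 cell is expected to carry 1 V segment per chain where a mixed population carries many. J chain links IgM pentamers and IgA dimers, and antibody messages increase greatly on the way to plasma cells.

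Jchain was among the 7 probe sets that passed as higher in GC than in transitional cells, as given below. In every Lig4/p53 tumour it was lower than in any sample of the other groups. Among the 28 symbols, a RefSeq promoter sequence (GRCm38.p6) was at hand for Jchain alone. It is printed to show the region just before the Jchain start site, chr5:88527898-88528147 on the minus strand, 250 bases from 5′ to 3′.
Jchain: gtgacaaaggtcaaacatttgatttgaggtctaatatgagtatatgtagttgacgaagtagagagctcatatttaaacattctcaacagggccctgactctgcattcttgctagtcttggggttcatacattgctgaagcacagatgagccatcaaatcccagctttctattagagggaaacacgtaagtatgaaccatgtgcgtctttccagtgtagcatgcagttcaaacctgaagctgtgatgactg
The octamer ATGCAAAT, a motif of antibody variable promoters that the octamer factors bind, was searched on both strands. These letters are not in this window, which is why no base is in capitals. They were found in 526 of 32851 promoters of this table (1.60%), searched over the same length.

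Marker genes met the labels only in part, with exceptions that touch the results. The mean log2 level of 5 plasma cell markers (5 of 5 measured) was 6.65 to 6.78 in plasma cells, 6.27 to 8.64 in plasmablasts and 6.60 to 6.79 in GC cells. The median of this mean was 7.38 in pro-B, 7.65 in pre-B and 7.17 in transitional cells, against 6.75 in plasma cells. Sdc1, which encodes the sort marker Cd138, was lower in plasma cells than in plasmablasts (limma log2 difference -4.02 ± 1.08 (SE), adjusted p = 0.0151). Granulocyte markers (6 of 6 measured) averaged 9.79 to 10.53 in pro-B cells and 8.47 to 11.26 in pre-B cells, against 3.52 to 4.96 in transitional cells. The mean of B-lineage markers (5 of 6 measured) was 5.62 to 7.74 in Myc/Bcl6 tumours and 6.90 to 7.46 in Bcl6 tumours, against 9.24 to 9.75 in GC cells. RNA quality moved with the groups. The log2 signal of 3′ over 5′ probe sets for Actb and Gapdh, a difference that is larger in shortened RNA, came to 2.25 to 4.69 in tumours and to 0.68 to 2.95 in normal samples other than plasma cells. Plasma cells had 4.59 and 4.46 in replicates 1 and 2 but 0.45 in replicate 3. The log2 signal of 18S rRNA was 4.14 to 6.15 in tumours and 10.04 to 11.28 in normal samples other than plasma cells. Where tumours are compared with normal cells below, this difference cannot be told apart from the groups. The first pro-B, the second pre-B and the second Bcl6 tumour sample had values of narrow spread, and plasmablast replicate 4 lay apart on the antibody probe sets. In bulk RNA, fewer cells of a type and less RNA per cell cannot be told apart.

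**Figure D1:**
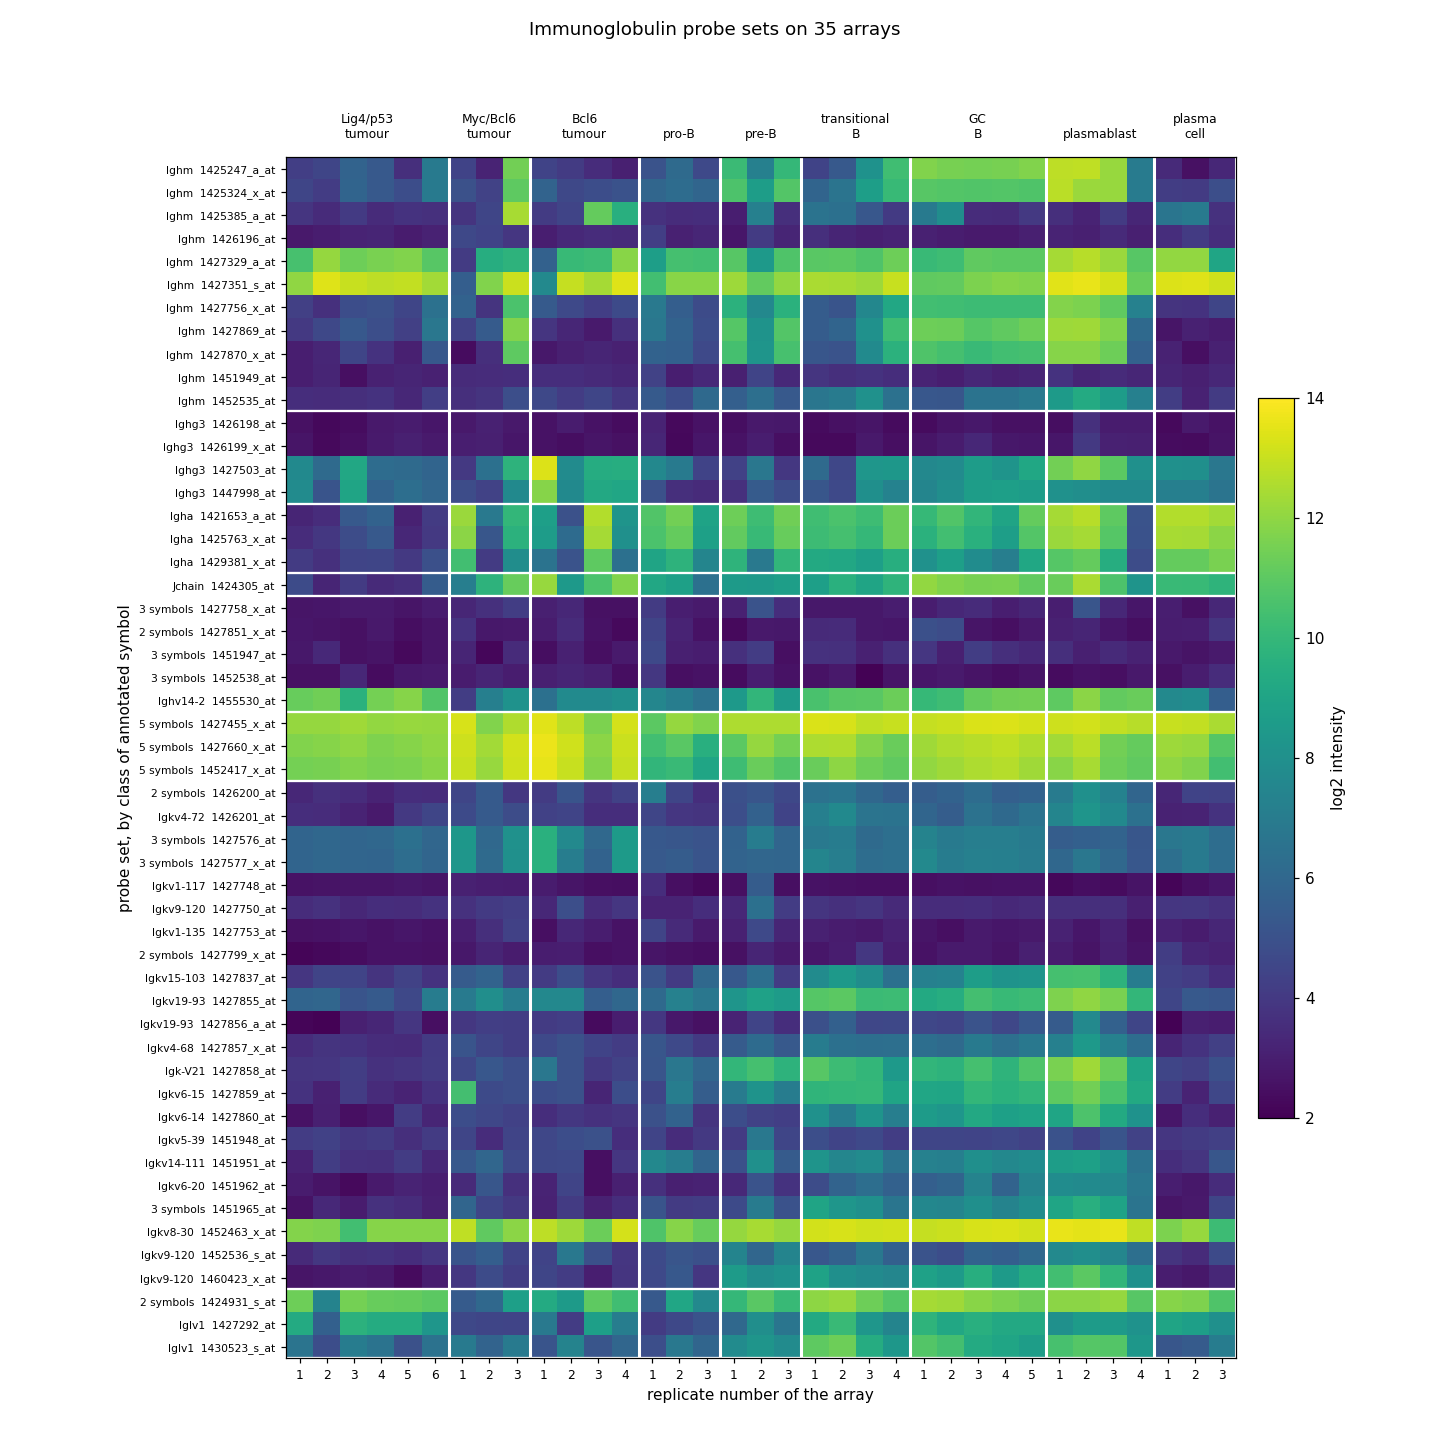
Log2 intensity (colour) of the 52 immunoglobulin probe sets (rows, by class) in the 35 samples (columns, by group and replicate number). Most kappa variable rows, though not Igkv8-30, are dark in the tumours and plasma cells while the 3 rows with Igkc stay bright, and single tumours are bright for Igha, Ighg3, Ighm or Igkv6-15.

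Across the normal stages, mu heavy chain transcripts gave 3 different pictures, depending on the probe set. Values are log2 intensities, on which a step of 1 is a factor of 2. The Ighm probe set 1427351_s_at was bright throughout, with 10.38, 11.89 and 11.86 in pro-B cells, 12.25, 11.10 and 12.04 in pre-B cells, 12.48, 12.45, 12.24 and 12.99 in transitional cells, 11.05, 11.13, 11.62, 11.83 and 11.72 in GC cells, 13.47, 13.61, 13.25 and 11.21 in plasmablasts and 13.38, 13.41 and 13.14 in plasma cells. Neighbouring stages overlapped except GC and transitional cells, and none of the 6 stage comparisons passed the test (GC minus transitional cells, -1.07 ± 0.42, adjusted p = 0.0946). 1427329_a_at, also Ighm, ran between 8.51 and 12.69 in normal samples, likewise without a call between stages.

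A second picture came from 5 Ighm probe sets (1425247_a_at, 1425324_x_at, 1427756_x_at, 1427869_at and 1427870_x_at) that moved alike. Of these, 1427869_at stood at 6.74, 5.75 and 4.83 in pro-B cells, 10.84, 8.18 and 10.78 in pre-B cells and 5.48, 5.88, 8.07 and 10.26 in transitional cells. The later stages had 11.36, 11.29, 10.85, 11.06 and 11.35 in GC cells, 12.22, 12.28, 11.72 and 6.11 in plasmablasts and 2.68, 3.11 and 2.90 in plasma cells. GC cells were thus tightly grouped, transitional cells were widely spread, plasmablast replicate 4 lay near the pro-B level, and every plasma cell sample lay below every other normal sample. Over all 5 probe sets the ranges were 4.63 to 6.84 in pro-B cells, 7.22 to 10.84 in pre-B cells, 4.39 to 10.33 in transitional cells, 10.13 to 11.75 in GC cells, 5.72 to 12.85 in plasmablasts and 2.47 to 4.87 in plasma cells. Of the remaining 4 Ighm probe sets, 1426196_at and 1451949_at stayed between 2.48 and 4.60 in all 35 samples, 1452535_at was brightest in plasmablasts (8.56, 9.34, 8.64 and 7.23), and 1425385_a_at is taken up with the tumours.

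Alpha heavy chain signal was present from the pro-B samples on. The plasma cell marker list was also above its plasma cell level in most pro-B and in all pre-B samples. Its part in the Igha signal was not tested. The Igha probe set 1421653_a_at read 10.73, 11.47 and 8.96 in pro-B cells, 11.35, 10.27 and 11.40 in pre-B cells, 10.33, 10.59, 10.28 and 11.31 in transitional cells, 10.03, 10.75, 9.91, 9.01 and 11.17 in GC cells, 12.40, 12.70, 11.03 and 5.09 in plasmablasts and 12.63, 12.61 and 12.34 in plasma cells. Plasmablast replicate 4 was far below every other normal sample, and the stages otherwise overlapped from pro-B to GC cells. In none of the 6 stage comparisons was any of the 3 Igha probe sets called; plasma cells against plasmablasts gave a log2 difference of 2.22 ± 1.14 for 1421653_a_at (adjusted p = 0.245).

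The 2 varying gamma 3 probe sets differed in how they ran over the stages. Of the 4 Ighg3 probe sets, 1426198_at and 1426199_x_at stayed between 2.27 and 3.98 in all samples. 1447998_at read 4.96, 3.63 and 3.49 in pro-B cells, 3.67, 5.46 and 4.77 in pre-B cells, 5.23, 4.65, 7.95 and 7.32 in transitional cells, 7.45, 7.92, 8.68, 8.79 and 8.64 in GC cells, 8.09, 7.92, 7.68 and 7.70 in plasmablasts and 7.18, 7.16 and 6.63 in plasma cells. On it both marrow precursor stages were low, and the transitional samples fell into a low and a high pair. The other probe set, 1427503_at, read 7.60, 6.90 and 4.41 in pro-B cells, 4.31, 6.76 and 3.94 in pre-B cells, 6.16, 4.53, 8.31 and 8.36 in transitional cells, 7.60, 7.77, 8.65, 8.20 and 9.13 in GC cells, 11.44, 11.99, 10.98 and 8.01 in plasmablasts and 8.01, 7.98 and 6.78 in plasma cells. It was highest in plasmablast replicates 1 to 3, and some pro-B and pre-B samples lay above the low transitional pair.

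J chain signal was above 10 in all GC samples and in all plasmablast samples but replicate 4. Jchain read 9.21, 8.81 and 6.42 in pro-B cells, 8.52, 8.48 and 8.73 in pre-B cells, 8.78, 9.61, 9.01 and 9.82 in transitional cells, 12.07, 11.73, 11.53, 11.58 and 11.10 in GC cells, 11.28, 12.49, 10.66 and 8.19 in plasmablasts and 10.11, 10.10 and 9.81 in plasma cells. All GC samples lay above all samples of the earlier stages, and plasma cells lay below all GC cells, with the lowest of them at the level of the highest transitional sample.

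**Figure D2:**
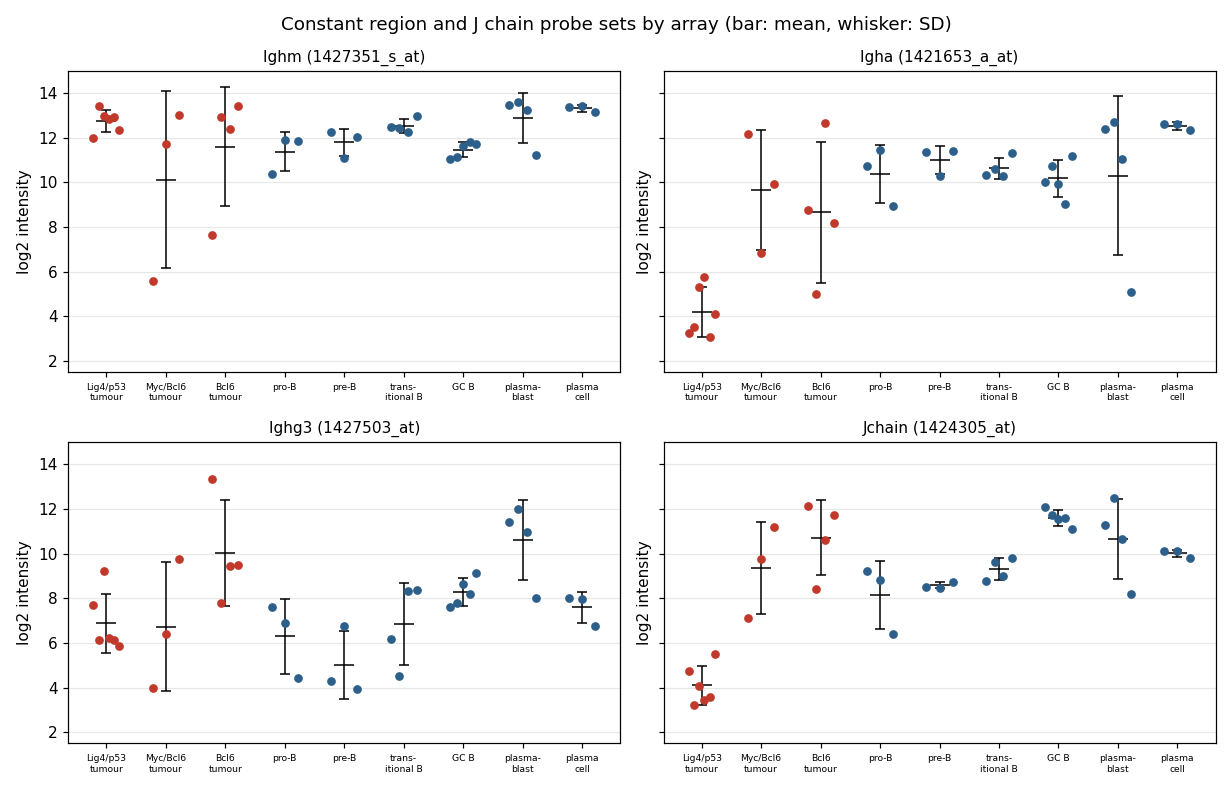
Log2 intensity of Ighm (1427351_s_at), Igha (1421653_a_at), Ighg3 (1427503_at) and Jchain (1424305_at) in each sample of the 9 groups (points; red tumours, blue normal cells), with the group mean (bar) and SD (whisker). Lig4/p53 tumours were at 3.08 to 5.76 for Igha and 3.24 to 5.49 for Jchain, below all other groups' means, while their Ighm was at 12.01 to 13.43.

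In pre-B cells against pro-B cells, the step in which light chains rearrange, 2 of the 52 probe sets rose and 0 fell in the limma test, and 0.190% of all 22626 tested probe sets were called (0.115% higher, 0.0751% lower). Both were kappa variable segments. Igk-V21 had 9.95, 10.45 and 9.78 in pre-B cells, against 5.14, 6.77 and 5.98 in pro-B cells (log2 difference 4.09 ± 0.65, adjusted p = 0.00825). Igkv9-120 (1460423_x_at) had 8.59, 7.88 and 8.10 in pre-B cells, against 4.66, 5.32 and 3.88 in pro-B cells (3.57 ± 0.56, adjusted p = 0.00786). For both, every pre-B sample lay above every pro-B sample. The median log2 difference of the 52 was 0.74, against 0.10 over all probe sets, and 23 had an unadjusted p under 0.05. Counts at an unadjusted p, here and below, were made for the 52 only, so no share over all probe sets stands beside them. Fitted on these 2 groups alone, limma called 0 of the 52 (13 at an unadjusted p under 0.05), and without pre-B replicate 1 it called 5. Such refits, here and in the comparisons below, are given for the 52 alone. A larger count in them need not exceed the share over all probe sets. Of the related genes, no member of the 6 lists passed; the surrogate light chain gene Vpreb1, which pairs with the first heavy chain, had -3.41 ± 0.84 (adjusted p = 0.112). Erythroid markers, 3 of 5 measured, averaged 7.44 to 8.27 in pre-B cells and 3.83 to 6.12 in pro-B cells, and macrophage markers 6.19 to 6.78 in pre-B cells and 5.21 to 5.28 in pro-B cells; their part was not tested.

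In transitional cells, the first B cells to reach the spleen, against pre-B cells, 7 probe sets rose and 0 fell, and 4.96% of all tested were called (2.59% higher, 2.38% lower). Of these, 5 were kappa variable probe sets, and the others were 1 heavy variable and 1 lambda probe set. Igkv6-14 (1427860_at) had 8.09, 7.02, 8.19 and 7.16 in transitional cells, against 4.84, 4.38 and 4.21 in pre-B cells (3.13 ± 0.50, adjusted p = 0.000583). Igkv6-15 had 9.86, 9.94, 9.98 and 9.01 in transitional cells, against 6.98, 8.16 and 7.04 in pre-B cells (2.31 ± 0.55, adjusted p = 0.0154). Neither segment overlapped between the stages. Also higher were 1451965_at (2.41 ± 0.66), with overlap, Igkv4-72 (2.03 ± 0.42) and Igkv19-93 (1427855_at, 2.00 ± 0.44). The median of the 52 was 0.55, against 0.03 over all. Leaving out pre-B replicate 3 left 3 calls, and leaving out pre-B replicate 2, of narrow spread, gave 10. In the rearrangement list, 3 of 6 measured genes fell, namely Rag2 (-3.00 ± 0.38) and Rag1 (-3.80 ± 0.85), which cut the segments, and Dntt (-3.99 ± 0.69), which adds bases at the joints; Vpreb1 fell by 3.58 on the log2 scale (SE 0.79). Markers of granulocytes, 6 of 6 measured, averaged 3.52 to 4.96 in transitional cells and 8.47 to 11.26 in pre-B cells; their part in the result was not tested.

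In GC cells, where switching and hypermutation take place, against transitional cells, 7 probe sets rose and 0 fell, and 14.0% of all tested were called (5.27% higher, 8.68% lower). They were the 5 Ighm probe sets that move alike, Jchain and 1 Ighg3 probe set, and no variable region probe set was called. The Ighm differences ran from 2.96 ± 0.90 for 1425324_x_at to 4.56 ± 1.08 for 1425247_a_at (adjusted p = 0.0329 and 0.00839). Jchain rose by 2.30 ± 0.61 (adjusted p = 0.0158), a call lost without transitional replicate 1 (2.12) and after renewed quantile normalization (2.00), and Ighg3 (1447998_at) by 2.01 ± 0.54 (adjusted p = 0.0181), with overlap. The step is also a change of strain: with strain as a covariate, which only the pro-B samples can inform, limma called 0 of the 52 (11 at an unadjusted p under 0.05). The differences of the 7 were larger in that fit and their errors wider, with 4.89 ± 1.11 for Jchain (adjusted p = 0.0643) and 2.81 ± 1.14 for Ighg3 (1447998_at, adjusted p = 0.323). Without transitional replicate 1 or 2, the calls were 2 and 3, and after renewed quantile normalization 3 rose and 1 fell. The median of the 52 was 0.06, against -0.28 over all probe sets (-0.05 after renewed quantile normalization). Of 11 measured genes of antibody secretion and plasma cell regulation, 2 rose and 1 fell. Pou2af1, the partner of the octamer factors, rose (1.40 ± 0.30, adjusted p = 0.00463), as did Ell2, an elongation factor used in making secreted heavy chains (2.51 ± 0.46, adjusted p = 0.00131). Creb3l2 fell (-1.39 ± 0.43, adjusted p = 0.0343). Of 5 measured partners of the antigen receptor, Cd79a fell (-1.30 ± 0.37, adjusted p = 0.0221) and 0 rose. Markers of T cells averaged 6.50 to 7.65 in GC cells and 5.10 to 5.58 in transitional cells (5 of 6 measured), and those of NK cells 6.77 to 7.86 in GC cells and 4.11 to 4.53 in transitional cells (4 of 4 measured). Granulocyte markers averaged 5.92 to 8.35 in GC cells and 3.52 to 4.96 in transitional cells, and macrophage markers 5.92 to 7.30 in GC cells and 4.67 to 5.62 in transitional cells; the part of these 4 lists was not tested.

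Few probe sets were called between plasmablasts and the other spleen stages. Against transitional cells limma called 0 of the 52 probe sets, with 18 at an unadjusted p under 0.05, and 0.460% of all tested were called (0.186% higher, 0.274% lower). The log2 difference was 3.76 ± 0.90 for Ighg3 (1427503_at, adjusted p = 0.0636) and 3.61 ± 0.87 for Ighm (1427756_x_at, adjusted p = 0.0639). This count turned on single samples: 8 rose without plasmablast replicate 4, 4 without transitional replicate 3 and 1 without transitional replicate 4. The share over all probe sets in these refits is not given here, so the 8 need not exceed it. Against GC cells 2 rose and 1 fell, with 0.831% of all tested called (0.172% higher, 0.659% lower). Ighm (1452535_at) rose, with 8.56, 9.34, 8.64 and 7.23 in plasmablasts, against 5.24, 5.23, 6.55, 6.56 and 6.86 in GC cells (2.35 ± 0.46, adjusted p = 0.0144). Igkv9-120 (1452536_s_at) rose as well, with 7.65, 7.95, 7.49 and 6.39 in plasmablasts, against 5.09, 4.85, 5.76, 5.57 and 6.08 in GC cells (1.90 ± 0.40, adjusted p = 0.024). 1427576_at, which carries 3 kappa variable symbols, fell by 1.55 (SE 0.28, adjusted p = 0.00632). The groups did not overlap for any of the 3, which had been chosen by their adjusted p. With plasmablast replicate 4 left out there were 7 calls, with replicate 1 or 3 or with GC replicate 1 or 2 left out there was 1, and equal medians gave 2 higher and 2 lower.

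In plasma cells against plasmablasts, most kappa variable probe sets fell, while probe sets with the kappa constant segment did not pass the test. Of the 52, 24 fell and 1 rose, and 13.1% of all tested were called (5.77% lower, 7.31% higher). Those that fell were 15 of 22 kappa variable, 6 of 11 Ighm, 1 of 4 Ighg3, 1 of 3 lambda and 1 of 5 heavy variable probe sets. The samples of the stages did not overlap for these 25, which had been chosen by their adjusted p. Igkv9-120 (1460423_x_at) had 2.96, 2.79 and 3.34 in plasma cells, against 10.37, 10.98, 9.88 and 8.03 in plasmablasts (-6.79 ± 0.52, adjusted p = 1.37e-08). Igkv6-15 had 4.14, 3.20 and 4.57 in plasma cells, against 11.00, 11.46, 10.61 and 9.29 in plasmablasts (-6.63 ± 0.55, adjusted p = 3.42e-08). Every plasma cell sample was below 5 for both, and plasmablast replicate 4 was the lowest of its own group. Igk-V21 (-6.47 ± 0.61), Igkv19-93 (1427855_at, -6.28 ± 0.44) and Igkv6-14 (1427860_at, -6.14 ± 0.50) followed. The one that rose was 1427576_at, by 1.12 (SE 0.31, adjusted p = 0.019), with 6.78, 6.97 and 6.28 in plasma cells, against 5.56, 5.66, 5.80 and 5.19 in plasmablasts. That call was lost in 6 of 17 alternatives, namely renewed quantile normalization (1.04), the 3′ minus 5′ covariate (0.80), replicate 3 as the only plasma cell sample (0.72), and leaving out plasma cell replicate 1 (1.07) or 2 (0.97) or plasmablast replicate 4 (1.00).

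The 3 probe sets that carry Igkc read 10.35 to 13.01 in plasma cells and 11.07 to 13.19 in plasmablasts, with log2 differences of -0.33 to -0.18. Of the lambda probe sets, 1424931_s_at, which carries Iglc1 and Iglv1, had 11.80, 11.70 and 10.72 in plasma cells and 11.92, 11.93, 12.09 and 10.90 in plasmablasts (-0.30 ± 0.59, adjusted p = 0.823). Another lambda probe set, 1430523_s_at for Iglv1, had 5.21, 5.43 and 7.06 in plasma cells, against 10.51, 10.83, 10.80 and 8.36 in plasmablasts (-4.23 ± 0.72, adjusted p = 0.000345), so probe sets of 1 locus disagreed. The same split held for mu: 1427351_s_at was not called (0.43 ± 0.48, adjusted p = 0.668), whereas 1425247_a_at was lower by 8.11 (SE 1.23, adjusted p = 0.000101). Plasma cell replicates 1 and 2 were the 2 normal samples of highest 3′ minus 5′ difference, and 18S rRNA was 4.02, 4.21 and 7.38 in plasma cells, against 10.19 to 10.86 in plasmablasts. With the 3′ minus 5′ difference as a covariate 24 fell and 0 rose in limma, and with replicate 3 as the only plasma cell sample, assumed to vary like the other groups, 21 fell. Ighg3 (1427503_at, -3.02 ± 0.97, adjusted p = 0.0437) lost its call when any 1 plasma cell sample or plasmablast replicate 1, 2 or 3 was left out. Among related genes, Cd79a (-1.47 ± 0.42) and Cd79b (-1.33 ± 0.40), the signalling partners of surface antibody, fell, as did Spib (-2.12 ± 0.56) and the IgE receptor Fcer2a (-3.84 ± 0.58).

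**Figure D3:**
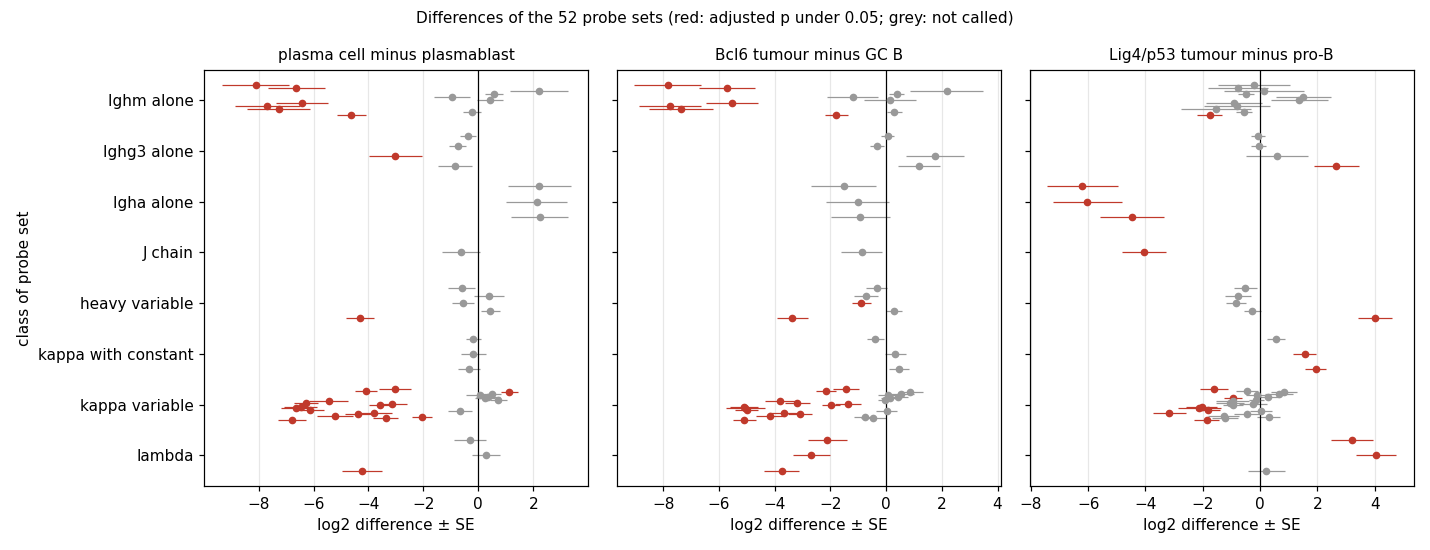
Log2 difference ± SE (x axis) of each of the 52 probe sets, by class (y axis), in plasma cells minus plasmablasts, Bcl6 tumours minus GC cells and Lig4/p53 tumours minus pro-B cells. Red points passed an adjusted p of 0.05 in limma; 24, 24 and 12 of them lie below 0 in the 3 panels.

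Bcl6 tumours were set against GC cells, the stage at which Bcl6 acts, and had lower signal of many kappa variable, lambda and Ighm probe sets. Of the 52, 24 fell and 0 rose in the limma test, and 27.3% of all tested were called (12.0% higher, 15.3% lower). They were 13 of 22 kappa variable, 6 of 11 Ighm, 3 of 3 lambda and 2 of 5 heavy variable probe sets. Igk-V21 had 6.76, 4.98, 4.00 and 4.35 in Bcl6 tumours, against 9.89, 9.74, 10.45, 9.81 and 10.70 in GC cells (-5.10 ± 0.51, adjusted p = 9.88e-09). Igkv9-120 (1460423_x_at, -5.09 ± 0.41), Igkv6-15 (-5.06 ± 0.70), Igkv6-14 (1427860_at, -5.01 ± 0.40) and 1451965_at (-4.17 ± 0.52) followed, none with overlap. Among Ighm probe sets, 1427869_at had 3.86, 3.30, 2.85 and 3.67 in Bcl6 tumours, against 10.85 to 11.36 in GC cells (-7.76 ± 1.11, adjusted p = 3.72e-06). The 3 probe sets with Igkc were not called (-0.39 to 0.47), nor were the Igha, Ighg3 and Jchain probe sets. The median of the 52 was -0.97, against 0.18 over all. With the 3′ minus 5′ difference as a covariate 17 of the 52 fell, and none of the 3 lambda probe sets was called (-1.29 for 1424931_s_at, -2.53 for 1427292_at and -1.89 for 1430523_s_at). 1424931_s_at was also not called in other alternatives, among them leaving out Bcl6 replicate 1 or 2 or GC replicate 1 or 2 (-2.01 to -1.69). Macrophage markers, 6 of 6 measured, averaged 7.70 to 9.63 in Bcl6 tumours and 5.92 to 7.30 in GC cells, and Cd79a fell too (-3.96 ± 0.38); the part of macrophages in the result was not tested.

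Myc/Bcl6 tumours against GC cells gave 25 lower and 2 higher probe sets, where 47.2% of all tested were called (21.2% lower, 26.0% higher). Of the kappa variable probe sets 12 of 22 fell and 1 rose, and of Ighm 7 of 11 fell and 1 rose. All 3 lambda probe sets fell, and Jchain, 1 Ighg3 and 1 heavy variable probe set fell. The 2 that rose were dim. Igkv1-135 read 3.01, 3.63 and 4.33 in Myc/Bcl6 tumours 1 to 3, against 2.51 to 2.86 in GC cells. Ighm 1426196_at read 4.60, 4.43 and 3.88 in these tumours, against 2.86 to 3.12 in GC cells. Igk-V21 had 4.56, 5.24 and 4.87 in Myc/Bcl6 tumours, against 9.74 to 10.70 in GC cells (-5.23 ± 0.56, adjusted p = 1.93e-08). Iglv1 (1427292_at) had 4.60, 4.50 and 4.45 in Myc/Bcl6 tumours, against 9.81, 9.19, 9.59, 9.24 and 9.22 in GC cells (-4.89 ± 0.73, adjusted p = 5.04e-06). Both were low in every tumour, without overlap. Igkv9-120 (1460423_x_at, -4.69 ± 0.45), Ighv14-2 (1455530_at, -4.35 ± 0.61) and Igkv6-14 (1427860_at, -4.20 ± 0.44) followed. Jchain (-2.24 ± 0.79, adjusted p = 0.022) was not called without replicate 1 of these tumours, where its difference was -1.12. The same held for Ighm 1427329_a_at, with -2.88 ± 0.99 and -1.04 without that tumour. The covariate for the 3′ minus 5′ difference left 18 lower and 0 higher. Macrophage markers averaged 7.17 to 8.13 in these tumours, and in replicate 2 a list of 4 liver genes averaged 12.3, against 4.39 and 4.54 in the other two tumours; its part was not tested.

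Few probe sets were called between the 2 Bcl6 groups. In Myc/Bcl6 against Bcl6 tumours 2 probe sets fell and 0 rose, with 3.04% of all tested called (1.52% higher, 1.52% lower). Ighg3 (1447998_at) had 4.80, 4.37 and 7.68 in Myc/Bcl6 tumours, against 11.81, 7.69, 9.24 and 9.11 in Bcl6 tumours (-3.85 ± 0.85, adjusted p = 0.0111). The groups met without overlap, and the call was lost without Myc/Bcl6 replicate 2 (-3.23). 1424931_s_at, the lambda probe set with Iglc1, had 5.45, 6.05 and 8.75 in Myc/Bcl6 tumours, against 9.32, 8.53, 11.03 and 10.33 in Bcl6 tumours (-3.05 ± 0.80, adjusted p = 0.0319), with overlap. Leaving out 1 tumour gave between 1 and 5 calls: 1 without Myc/Bcl6 replicate 2 or Bcl6 replicate 3 or 4, and 5 without Myc/Bcl6 replicate 3 or Bcl6 replicate 2.

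Within these groups, single tumours stood apart in which chain was bright. A probe set was said to stand alone in a sample when its log2 value exceeded that of every other sample of the group by 2 or more; this is a description without a test. Over the 13 tumours this held for 18 of 676 pairs of probe set and sample (2.66%), where it held for 0.616% of pairs over all probe sets. Over the 22 normal samples it held for 9 of 1144 (0.787%), near the 0.762% over all, and 6 of the 9 were in pre-B replicate 2, of narrow spread, where 9.24% of all probe sets stood alone. The smallest excess inside the limit was 2.22, for Igha in a Myc/Bcl6 tumour, and the largest outside was 1.86, for Igkv9-120 in a Bcl6 tumour. Probe sets of the same gene in 1 sample counted as separate pairs, so the pairs are not independent. The rule is also easier to meet in a group of 3 samples than in a group of 6. A signal shared by tumours of a group does not stand alone under this rule. Kappa variable probe set 1427576_at read 9.61, 7.67, 6.06 and 8.53 in Bcl6 tumours 1 to 4. It read 8.34, 6.06 and 8.06 in Myc/Bcl6 tumours 1 to 3. Its highest normal value was 7.36, in a GC sample, and 1427577_x_at ran alike.

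Bcl6 tumour replicate 1 was bright for gamma 3. Both varying Ighg3 probe sets stood alone in it, where 0.194% of all probe sets did. 1427503_at read 13.36, 7.77, 9.44 and 9.49 in Bcl6 tumours 1 to 4, an excess of 3.87, and the highest of all 35 samples. In the same tumour Ighm was low, with 7.65 on 1427351_s_at, against 12.95, 12.39 and 13.44 in the other three, and 5.70 on 1427329_a_at, against 10.09, 10.20 and 11.89.

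Bcl6 tumour replicate 3 was bright for alpha. All 3 Igha probe sets stood alone in it, again where 0.194% of all did. 1421653_a_at read 8.78, 5.00, 12.64 and 8.19 in Bcl6 tumours 1 to 4, an excess of 3.86, which put replicate 3 at the level of the plasma cells (12.34 to 12.63). Ighm 1427351_s_at was at 12.39 in this tumour too, and 1425385_a_at, an Ighm probe set below 8 in every normal sample, read 4.09, 4.47, 11.17 and 9.58 in Bcl6 tumours 1 to 4. Bcl6 tumours 2 and 4 had no immunoglobulin probe set that stood alone, where 1.19% and 0.345% of all probe sets did; both were bright for Ighm 1427351_s_at and for the Igkc probe sets.

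Myc/Bcl6 tumour replicate 1 carried the one kappa variable probe set that stood alone in a tumour. Igkv6-15 read 10.43, 4.69 and 4.90 in Myc/Bcl6 tumours 1 to 3, an excess of 5.53, and its value lay within the range of plasmablasts (9.29 to 11.46), while every other tumour of the 13 was at or below 4.99. The 3 Igha probe sets stood alone in this tumour too, with 12.18, 6.85 and 9.94 on 1421653_a_at, and 0.756% of all probe sets did. Ighm was low in it, with 5.61, 11.74 and 13.03 on 1427351_s_at, and Jchain read 7.13, 9.77 and 11.20. B-lineage markers averaged 5.62, 7.51 and 7.74 and the plasma cell list 7.63, 5.98 and 6.06 in Myc/Bcl6 tumours 1 to 3; their part was not tested.

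Myc/Bcl6 tumour replicate 3 was bright for mu. In it 9 probe sets stood alone, where 1.15% of all did: 6 for Ighm, 2 for Ighg3 and 1424931_s_at for lambda. The largest excess was 7.94, on Ighm 1425385_a_at, with 3.81, 4.50 and 12.44 in Myc/Bcl6 tumours 1 to 3. The 5 Ighm probe sets that move alike read 10.61 to 11.75 in replicate 3, against 2.40 to 5.79 in replicate 1, 3.18 to 5.44 in replicate 2 and 10.13 to 11.75 in GC cells. Myc/Bcl6 tumour replicate 2 had no immunoglobulin probe set that stood alone, although 3.38% of all probe sets did. Its Igkc probe sets read 11.74 to 12.32.

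**Figure D4:**
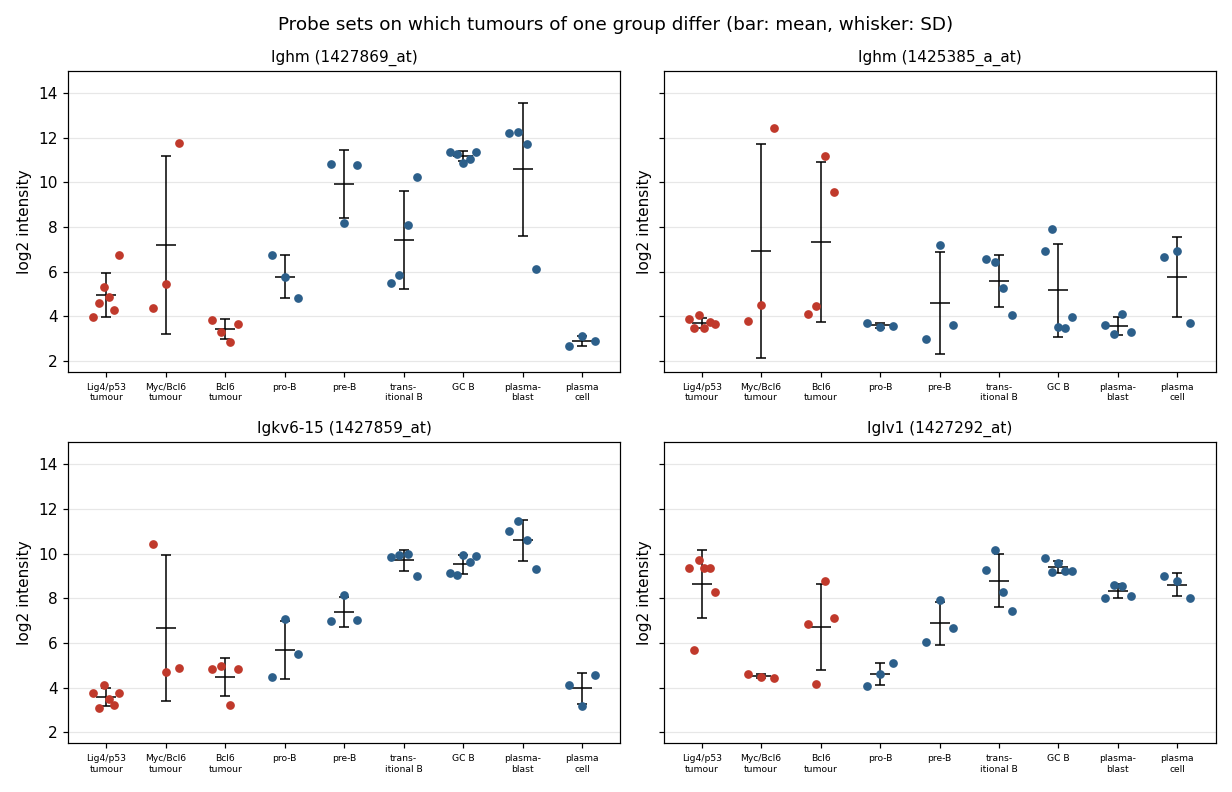
Log2 intensity of Ighm (1427869_at and 1425385_a_at), Igkv6-15 and Iglv1 (1427292_at) in each sample of the 9 groups (points; red tumours, blue normal cells), with the group mean (bar) and SD (whisker). Igkv6-15 is at 10.43 in a single Myc/Bcl6 tumour, 1425385_a_at is above 9 in 3 tumours, and Iglv1 is at 5.70 in 1 Lig4/p53 tumour and at 8.30 to 9.70 in the other five.

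Lig4 encodes the ligase that closes the breaks made in joining, and p53 removes cells with open breaks. Lig4/p53 tumours had no immunoglobulin probe set that stood alone, where at most 0.398% of all probe sets did in any of the 6. Against pro-B cells 6 probe sets rose and 12 fell, with 21.2% of all tested called (11.6% higher, 9.67% lower). Alpha and J chain were lower: Igha (1421653_a_at) had 3.08, 3.82 and 5.76 as lowest, median and highest in Lig4/p53 tumours, against 10.73, 11.47 and 8.96 in pro-B cells (-6.21 ± 1.23, adjusted p = 0.000484), and all 3 Igha probe sets fell. Jchain had 3.24, 3.85 and 5.49 as lowest, median and highest in Lig4/p53 tumours, against 9.21, 8.81 and 6.42 in pro-B cells (-4.05 ± 0.77, adjusted p = 0.000307). Neither overlapped with pro-B cells. Ighm 1427351_s_at was bright in both, at 12.01, 12.87 and 13.43 (lowest, median, highest) in the tumours and 10.38 to 11.89 in pro-B cells, and was not called (1.38 ± 0.99, adjusted p = 0.334). The 5 Ighm probe sets that move alike read 3.03 to 6.88 in the tumours and 4.63 to 6.84 in pro-B cells, and none was called. Of the 11 Ighm probe sets 1 fell, 1452535_at (-1.76), with 3.32 to 4.22 in the tumours, against 5.40, 4.83 and 6.08 in pro-B cells. Granulocyte markers averaged 4.64 to 6.68 in Lig4/p53 tumours and 9.79 to 10.53 in pro-B cells. The plasma cell list averaged 5.50 to 6.54 in these tumours and 5.27, 7.48 and 7.38 in pro-B cells; the part of either in the result was not tested.

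The increases against pro-B cells included 2 of 3 lambda probe sets, a heavy variable segment and kappa. Ighv14-2 (1455530_at) read 9.68, 11.30 and 11.81 as lowest, median and highest in Lig4/p53 tumours, against 7.52, 7.09 and 6.53 in pro-B cells (4.01 ± 0.59, adjusted p = 1.45e-05). Iglv1 (1427292_at) read 9.35, 5.70, 9.70, 9.38, 9.37 and 8.30 in Lig4/p53 tumours 1 to 6, against 4.09, 4.60 and 5.08 in pro-B cells (4.04 ± 0.71, adjusted p = 0.00012). Replicate 2 was thus low among the tumours, and lay above all pro-B samples all the same. 1424931_s_at, with Iglc1, showed replicate 2 low as well (11.37, 7.36, 11.51, 11.21, 11.16 and 10.98 in tumours 1 to 6, against 5.37, 9.11 and 7.67 in pro-B cells; 3.21 ± 0.74, adjusted p = 0.0023), and was not called without pro-B replicate 1. The remaining lambda probe set, 1430523_s_at for Iglv1, was not called. It read 4.84 to 7.04 in the tumours and 4.88, 6.82 and 5.91 in pro-B cells. Of the probe sets with Igkc, 1452417_x_at (1.95 ± 0.37) and 1427660_x_at (1.56 ± 0.39) rose, and Ighg3 (1447998_at) rose (2.65 ± 0.79, adjusted p = 0.0152). The other varying Ighg3 probe set, 1427503_at, was not called, with 5.86 to 9.21 in the tumours and 7.60, 6.90 and 4.41 in pro-B cells. Kappa variable segments went the other way: 7 of 22 fell and 0 rose, the largest being Igkv14-111 (-3.17 ± 0.57), Igkv6-15 (-2.12 ± 0.74) and Igk-V21 (-2.04 ± 0.54). Igkv6-15 lost its call in 9 of 18 alternatives, among them the 3′ minus 5′ covariate (-1.80) and leaving out pro-B replicate 2 (-1.43) or 3 (-2.21), or Lig4/p53 replicate 2, 4 or 5. Of the related genes, Vpreb1 (-6.73 ± 0.69) and Dntt (-7.61 ± 0.55) fell, and Pou2af1 rose (1.49 ± 0.32).

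Against Bcl6 tumours, the Lig4/p53 tumours had 14 probe sets lower and 2 higher, with 24.6% of all tested called (10.1% lower, 14.5% higher). Jchain had 3.24, 3.85 and 5.49 as lowest, median and highest in Lig4/p53 tumours, against 12.15, 8.42, 10.59 and 11.71 in Bcl6 tumours (-6.62 ± 0.70, adjusted p = 3.45e-08). All 3 Igha probe sets, 2 of 4 Ighg3, 1 of 11 Ighm, 2 of 3 with Igkc and 5 of 22 kappa variable probe sets were lower. Ighv14-2 rose, with every Lig4/p53 tumour above 9 and Bcl6 tumours at 6.45, 7.74, 7.75 and 7.97 (3.58 ± 0.54, adjusted p = 1.03e-05). Iglv1 (1427292_at) rose by 1.91 (SE 0.64, adjusted p = 0.0289), with overlap, and the variable probe sets 1427576_at (-1.93 ± 0.43), 1427577_x_at (-1.78 ± 0.45) and Igkv9-120 (1452536_s_at, -1.29 ± 0.42) were lower. Iglv1 lost its call without Bcl6 replicate 1 (1.95) or 2 (1.05), without Lig4/p53 replicate 1, 3, 4 or 5, and with the 3′ minus 5′ covariate (1.84). The count was 9 without Bcl6 replicate 1 and 9 with that covariate. Ell2, the elongation factor of secreted heavy chains, was lower (-5.43 ± 0.51), as was Xbp1, a driver of the secretory state (-3.14 ± 0.59), whereas Rag1 was higher (4.35 ± 0.68). Macrophage markers averaged 5.02 to 6.55 in Lig4/p53 tumours and 7.70 to 9.63 in Bcl6 tumours, T cell markers 3.77 to 4.23 in Lig4/p53 tumours and 6.28 to 6.95 in Bcl6 tumours, and B-lineage markers 8.16 to 8.54 in Lig4/p53 tumours and 6.90 to 7.46 in Bcl6 tumours; their part was not tested.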

How the data were processed

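Per the labels' protocols, Tripure RNA was amplified (NuGen Ovation V2) and biotin-labelled before hybridisation. The authors deposited log2 intensities per probe set, made with RMA per the submitters' processing notes; which arrays were normalized together is not given in the sources used here. Arrays give no counts, so their number limits the precision.

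Of 22690 probe sets, 64 controls were left out and 22626 tested. Symbols came from GEO's platform annotation, and 51 of the 52 members had every symbol in RefSeq's GRCm38.p6 table. Members, gene lists and tests were chosen with earlier results of these data known. Each comparison was a limma contrast with empirical Bayes moderation and Benjamini-Hochberg adjustment over all probe sets (adjusted p under 0.05), fitted on the 22 normal arrays for stages and on all 35 for tumours. Differences are log2 ± SE. Overlap of samples was noted for named or called probe sets and was not counted over all probe sets. Called probe sets were chosen by their adjusted p, so a lack of overlap among them is no separate result. "Rose" and "fell" are used only of probe sets or genes that passed. Of the 6 lists of related genes, some members are named in the text, and not every member that passed is named.

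The naming rule took the constant region probe sets, Jchain, the 5 called variable region probe sets of largest difference per comparison, and those standing alone in a tumour; each sample's value for all 52 is in the heatmap. The fits were tested on simulated data. Alternatives were renewed quantile normalization, equal medians, a filter on dim probe sets (mean log2 of at least 5), array weights, a trended robust prior, a fit of only the groups compared, a block for the replicate number, strain as a covariate, members with 1 symbol, and leaving out each array or the 3 of narrow spread. The covariate for the 3′ minus 5′ difference and the fit with 1 plasma cell array were chosen after seeing the data. Trp53 and Lig4 were not analysed here. R 4.3.3, limma 3.58.1 and Python 3.11.15 were used.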

Additional observations from a re-analysis of the deposited data

Results flagged for a closer look

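Dixon's criterion was applied in groups of 4 to 6 samples and to the immunoglobulin probe sets alone. The share over all probe sets is therefore not given, and the count below need not exceed it. The pairs are not independent, since probe sets of the same gene were counted separately. Of 260 pairs of probe set and group, 23 had 1 sample far from the others, where chance gives about 1 in 20. Plasmablast replicate 4 accounted for 10, all low: Ighm on 1425247_a_at (6.98, against 12.16 to 12.85 in the others), 1425324_x_at (6.97), 1427351_s_at (11.21), 1427756_x_at (7.29), 1427869_at (6.11) and 1427870_x_at (5.72), lambda on 1424931_s_at (10.90) and on 1430523_s_at for Iglv1 (8.36), Igkv9-120 on 1427750_at (3.05) and Igkv8-30 (12.83). Lig4/p53 tumour replicate 2 was low on both lambda probe sets named above, 1427292_at for Iglv1 (5.70) and 1424931_s_at (7.36).

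Further single values were as follows. Lig4/p53 tumour replicate 3 was high on 1427455_x_at, which carries Igkc (12.30), and low on Igkv8-30 (10.37) and on Ighm 1451949_at (2.48). Lig4/p53 tumour replicate 5 was high on 1427576_at (6.43) and 1427577_x_at (6.29). Bcl6 tumour replicate 3 was low on Igkv6-15 (3.23), and Bcl6 tumour replicate 1 on Ighv14-2 (6.45). Among transitional samples, replicate 4 was high on 1427758_x_at (2.96) and low on Igkv6-15 (9.01), replicate 1 was high on Igkv4-68 (7.04), and replicate 3 was low on 1451947_at (3.10).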

How the results depend on the processing

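Of 131 single calls, 70 held under every alternative run, and of 2278 alternative values 2037 kept the call, 241 lost it and 0 turned sign. The counts of plasma cells against plasmablasts, of both Bcl6 groups against GC cells and of Lig4/p53 tumours against pro-B cells stayed within 1.5 times. The cause of the other shifts was not tested. The counts of calls that follow are of the 52 alone. Calls over all probe sets also changed with the setting, as given below for GC against transitional cells. A larger count therefore need not exceed the share over all probe sets. Calls among the 52 in pre-B against pro-B cells numbered 4 after quantile normalization and 0 with the groups alone. Transitional against pre-B cells gave 11 with array weights, 2 with the groups alone and 13 without the narrow arrays. GC against transitional cells gave 4 after quantile normalization, 12 with weights, 14 alone, 12 without the narrow arrays and 0 with strain as a covariate. Plasmablasts gave 17 with weights, 5 alone and 11 without the narrow arrays against transitional cells, and 20, 9 and 8 against GC cells under those 3 settings. Myc/Bcl6 against Bcl6 tumours gave 0 with weights and 0 alone (10 at an unadjusted p under 0.05 in each), 11 without the narrow arrays and 1 among members with 1 symbol. Lig4/p53 against Bcl6 tumours gave 9 with the 3′ minus 5′ covariate. An excess of 1 made 40 of 676 pairs stand alone in tumours (5.92%, against 3.33% over all probe sets). Leaving out each replicate gave 2 to 5, 3 to 10, 2 to 7, 0 to 8, 1 to 7, 23 to 24, 21 to 23, 22 to 27, 1 to 5, 15 to 20 and 9 to 17 calls, in the order of the comparisons in the text.

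In no comparison did the deviations of same-numbered samples from their group means correlate above 0.1 in every pair, the limit used here, so the samples were taken to share only a number. GC against transitional cells came nearest, with 0.0964 to 0.2209 and 3 of 4 pairs above it, and 6 of its 8 samples correlated best with their own number. With the replicate number as a block, GC against transitional cells gave 3 calls and Myc/Bcl6 against Bcl6 tumours 1, and the counts of the other comparisons stayed within 1.5 times. Over all probe sets, calls in GC against transitional cells ranged from 60 with strain to 9940 with weights, against 3158, and the share of calls that were higher was 37.8%, with 55.6% after quantile normalization and 61.1% with equal medians.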
